A study of Mus musculus with 20 samples.

Results

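The tau response among mice labelled C3aR KO was read from 10 of the 20 hippocampal RNA-seq libraries of the series, chosen by their titles: 5 titled PS19/C3aR KO and 5 titled C3aR KO. PS19 mice express human tau with a disease-causing mutation under the mouse prion protein promoter, which is active mainly in neurons, and they develop tau pathology and gliosis with age. C3aR, encoded by C3ar1, binds C3a, the small peptide cut off complement component C3 on its activation, and in brain it is found mostly on microglia and other myeloid cells. The PS19/C3aR KO libraries carry both labels, and the C3aR KO libraries carry the receptor label without the tau transgene, so the label C3aR KO is shared by both groups. The remaining 10 libraries, 5 titled PS19 and 5 titled WT, give the tau response without that label and are set beside it. All 20 came from male mice 9 months old, labelled C57BL/6J. No label says how the receptor allele was made, whether the receptor is missing in every cell, whether a library is 1 animal or a pool, or in which batch it was prepared.

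Tau that aggregates in neurons is accompanied in mouse brain by reactive astrocytes, which raise intermediate filaments such as Gfap and Vim, and by microglia that take on a state called disease-associated, with Cst7, Itgax and Clec7a among its defining genes. Microglia in that state engulf synapses and debris and digest them in lysosomes. Part of the glial response in tauopathy is a type I interferon programme, whose target genes often carry an interferon-stimulated response element in their promoters.

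Gene counts per library lay between 33885850 and 46676667 in PS19/C3aR KO and between 36721178 and 47828111 in C3aR KO. Rn45s, a ribosomal RNA precursor that polyadenylated libraries are meant to leave out, took 1.04 to 3.03% and 0.923 to 4.34% of those counts. The list of 10 genes that mark hippocampal neurons had a mean log2 level of -0.69 to 0.20 in PS19/C3aR KO and -0.57 to 0.41 in C3aR KO, relative to the C3aR KO mean, so the groups overlapped in them. Choroid plexus was unevenly present: Ttr, its main product, read 3628, 15.1, 37.5, 211 and 3929 CPM, counts scaled to a common library size (TMM), in PS19/C3aR KO libraries 1 to 5, against 2686, 9.53, 57.2, 3000 and 30.1 CPM in C3aR KO libraries 1 to 5. Thalamic genes stood out in PS19/C3aR KO library 4, where Prkcd read 142 CPM, against 11.1 to 51.3 CPM in the other 4 libraries of that group and 9.63 to 38.6 CPM in C3aR KO. C3ar1 itself, at chr6:122847140-122856157 (GRCm38, GENCODE), goes against the label: it averaged 17.0 ± 1.58 CPM in PS19/C3aR KO and 16.0 ± 1.48 in C3aR KO (SD, n = 5), against 2.08 ± 0.286 in WT. A gene total cannot show which exons the reads came from, so the groups are called here by their labels.

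The promoters of 4 interferon-response genes are shown because these genes stood at higher levels in PS19/C3aR KO than in C3aR KO and because letters of the response element lie in the stretch shown. The sequences are RefSeq, GRCm38.p6, read 5′ to 3′ on the strand of the gene and ending at the base before its start: Trim30a at chr7:104465194-104465393 on the minus strand, Gbp2 at chr3:142620463-142620662 on the plus strand, Rsad2 at chr12:26456453-26456652 on the minus strand and Ifit3 at chr19:34583329-34583528 on the plus strand. Capitals mark matches to GAAANNGAAA on either strand, and no other motif is marked.
Trim30a: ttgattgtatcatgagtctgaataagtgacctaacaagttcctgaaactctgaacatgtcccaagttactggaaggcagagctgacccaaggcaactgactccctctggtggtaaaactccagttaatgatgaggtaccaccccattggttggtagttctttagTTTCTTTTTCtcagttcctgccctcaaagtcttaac
Gbp2: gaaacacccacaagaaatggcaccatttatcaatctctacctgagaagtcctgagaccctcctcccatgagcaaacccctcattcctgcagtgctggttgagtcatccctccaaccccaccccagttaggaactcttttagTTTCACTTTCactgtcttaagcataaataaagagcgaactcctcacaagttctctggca
Rsad2: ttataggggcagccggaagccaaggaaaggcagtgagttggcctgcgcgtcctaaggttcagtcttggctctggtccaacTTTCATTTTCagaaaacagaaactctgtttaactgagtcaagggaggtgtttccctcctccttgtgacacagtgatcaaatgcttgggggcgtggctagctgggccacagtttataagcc
Ifit3: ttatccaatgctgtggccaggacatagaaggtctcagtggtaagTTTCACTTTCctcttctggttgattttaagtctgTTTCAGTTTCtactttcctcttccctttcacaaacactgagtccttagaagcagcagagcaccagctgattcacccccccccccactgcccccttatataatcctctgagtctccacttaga
The match lies 36 bases before the start of Trim30a, 59 before Gbp2 and 120 before Rsad2, counted to its first base, and Ifit3 has 2 matches, at 156 and 122 bases. Over the 250 bases before each start, the letters were found in 11 of the 21 interferon-response genes with a promoter entry (52.4%). They were found in 386 of 12420 tested genes with an entry (3.11%) and in 936 of all 27025 genes with one (3.46%). Microglial genes held them in 3 of 22 promoters (13.6%) and presynaptic genes in 2 of 15 (13.3%). A palindrome bound by STAT factors, TTCNNNGAA, stood in 1 of 13 promoters of reactive-astrocyte genes (7.69%) against 8.13% of all promoters. A match describes letters and not binding.

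Prnp, which encodes the prion protein and lends its promoter to the tau transgene, was the 1 gene that rose by the edgeR quasi-likelihood test at a Benjamini-Hochberg adjusted p below 0.05. The gene lies at chr2:131909928-131938436 (GRCm38, GENCODE). It read 1918, 2026, 1831, 1880 and 1828 CPM in PS19/C3aR KO libraries 1 to 5, against 842, 825, 851, 871 and 869 CPM in C3aR KO libraries 1 to 5. The groups were far apart and each was tight, with a log2 fold change of 1.16 (SE 0.04, adjusted p = 2.75e-12). The same gene averaged 1885 ± 29.1 CPM in PS19 and 888 ± 49.6 in WT (SD, n = 5), a log2 fold change of 1.09. A gene total cannot show whether the Prnp reads come from the mouse gene or from the transgene, and this was not tested. Mapt, which encodes mouse tau and to which reads of the human transgene may align in part, read 610, 660, 592, 586 and 602 CPM in PS19/C3aR KO, against 546, 565, 590, 551 and 544 CPM in C3aR KO. Its log2 fold change of 0.13 (SE 0.04) had an adjusted p of 0.303, and the groups overlapped, at 586 CPM in PS19/C3aR KO and 590 CPM in C3aR KO.

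Prnp was the 1 gene of 16657 tested that passed in the higher direction (0.006%), and 0 passed in the lower direction (0%). Of all tested genes, 8224 had a positive log2 fold change and 8433 a negative one. Without adjustment, 994 genes had a p below 0.05 with the higher level in PS19/C3aR KO (5.97%) and 623 with the lower (3.74%). In 216 genes every PS19/C3aR KO library lay above every C3aR KO library in CPM (1.3%), and in 92 every one lay below (0.552%). DESeq2, with another estimate of the spread, called 125 genes higher (0.751%) and 33 lower (0.198%) at an adjusted p below 0.05, or 0.949% in either direction, while limma-voom called the same numbers as edgeR, 1 and 0. At an adjusted p below 0.10, a threshold added after the values were seen, edgeR called 35 higher (0.21%) and 10 lower (0.06%). The gene groups below are therefore described by their values and by these shares, and a gene other than Prnp is not said to have passed unless DESeq2 is named. Gfap, Ptx3, Cst7, Clec7a, Cd14, Cd52, Mmp12 and Ccl6 are named below because their p in the higher direction was among the lowest. Others, such as Ly86, Gpr34, Aqp4, Psmb8, Opalin and Mfsd2a, had the lowest p of a list. Where such genes do not overlap between groups, that comes in part from the choice. CPM are compared within a gene, never between genes. In bulk tissue more cells of a type and more RNA per cell cannot be told apart.

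**Figure D1:**
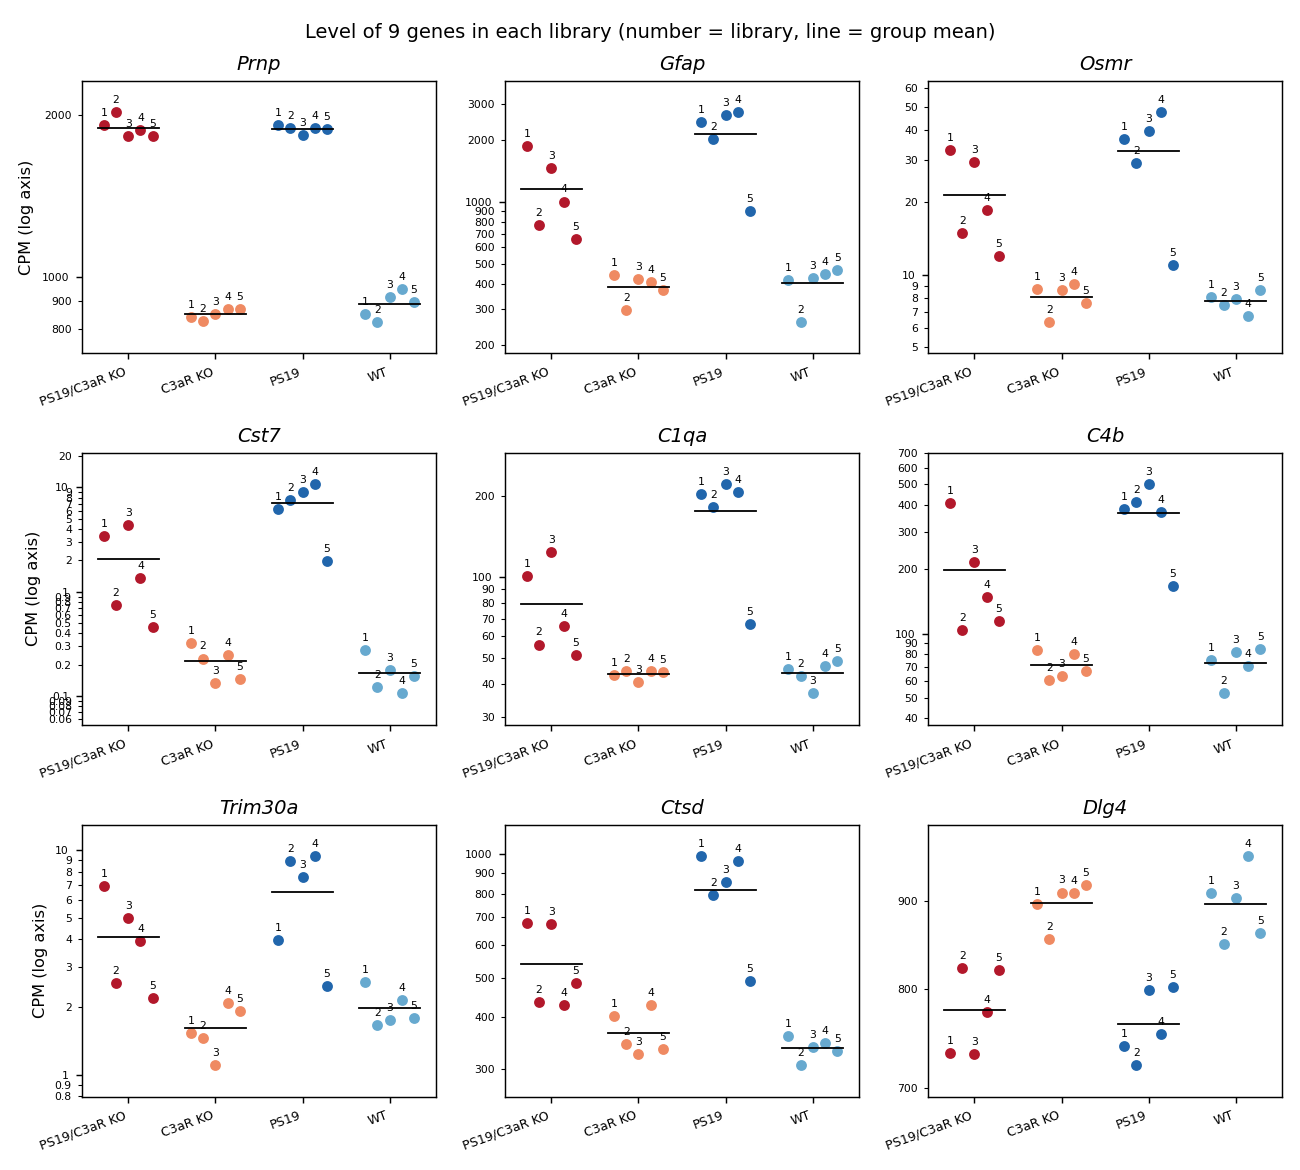
CPM on a log axis of 9 genes in the 5 libraries of each of 4 groups; points are libraries, numbers name them and lines are group means. Prnp separates the groups tightly, whereas Gfap in PS19/C3aR KO runs from 661 to 1865 CPM, with libraries 1 and 3 highest, above 296 to 439 CPM in C3aR KO.

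Reactive astrocyte genes stood at higher levels in PS19/C3aR KO. Gfap, the astrocyte intermediate filament at chr11:102887336-102897200 (GRCm38), read 1865, 771, 1463, 1004 and 661 CPM in PS19/C3aR KO libraries 1 to 5, against 439, 296, 419, 408 and 372 CPM in C3aR KO libraries 1 to 5. Every PS19/C3aR KO library lay above every C3aR KO library, and within PS19/C3aR KO libraries 1 and 3 were highest and 5 was lowest. The log2 fold change was 1.58 (SE 0.28), with an adjusted p of 0.0724 by edgeR and 7.24e-05 by DESeq2. Vim, another intermediate filament of reactive astrocytes, was highest in libraries 1 and 4 and did not overlap between groups, at 138, 56.8, 98.4, 102 and 58.5 CPM in PS19/C3aR KO, against 50.8, 31.8, 29.4, 46.2 and 42.5 CPM in C3aR KO (log2 fold change 1.18, SE 0.27, adjusted p = 0.108). Osmr, the receptor for oncostatin M that signals through gp130 and STAT3, read 33.0, 14.9, 29.4, 18.5 and 12 CPM in PS19/C3aR KO, against 8.68, 6.37, 8.66, 9.11 and 7.62 CPM in C3aR KO (1.41, SE 0.30, adjusted p = 0.0942). Ptx3, a secreted pattern-recognition protein, was low but did not overlap, at 2.26, 0.792, 1.15, 1.59 and 0.733 CPM in PS19/C3aR KO and 0.241, 0.153, 0.161, 0.350 and 0.209 CPM in C3aR KO. Its log2 fold change of 2.53 (SE 0.45) was close to the 2.65 of PS19 minus WT. Aspg, an asparaginase, overlapped in 1 library: PS19/C3aR KO library 2, at 6.98 CPM, lay below C3aR KO library 2, at 7.03 CPM, while the other PS19/C3aR KO libraries read 10.1 to 31.0 CPM.

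Of the 13 pan-reactive astrocyte genes, all had a positive log2 fold change, with a median of 1.18 against -0.0015 over all tested genes. DESeq2 called 7 of them higher, 11 had an unadjusted p below 0.05 and 5 did not overlap between groups. The list named for neuroinflammatory astrocytes (A1) had a median of 0.72 with 4 of 12 called by DESeq2, and the list named for ischaemic astrocytes (A2) had 0.36 with 3 of 11. Some genes stand in more than 1 list, such as Psmb8 in A1 and in MHC class I presentation, so the counts of different lists are not separate. Genes of astrocytes in general, which mark the cell and not its reaction, had a median of 0.12, and DESeq2 called 0 of 18, although 4 had an unadjusted p below 0.05. Aqp4, the water channel of astrocyte endfeet, was one of the 3 of these that did not overlap, at 251, 164, 234, 217 and 177 CPM in PS19/C3aR KO libraries 1 to 5, against 164, 119, 122, 154 and 160 CPM in C3aR KO (0.53, SE 0.15, adjusted p = 0.198). Of 27 genes of gp130 and STAT3 signalling, 3 were called by DESeq2, Osmr and Bcl3 among them, and the median was 0.17.

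Microglial genes followed. Of 30 genes of microglia in general, 29 had a positive log2 fold change and 29 an unadjusted p below 0.05 (the background was 5.97%), 17 did not overlap between groups (1.3%), and 13 were called higher by DESeq2 (0.751%), with a median of 0.71. Ly86, a partner of a Toll-like receptor homologue, read 18.5, 8.57, 18.8, 11.6 and 7.82 CPM in PS19/C3aR KO, against 6.62, 7.01, 5.73, 6.76 and 6.03 CPM in C3aR KO (1.02, SE 0.23, adjusted p = 0.104). Tyrobp, the signalling adaptor of TREM2, read 22.8, 14.9, 28.1, 15.7 and 12.3 CPM in PS19/C3aR KO, against 8.60, 10.4, 8.55, 10.4 and 9.85 CPM in C3aR KO (0.97, SE 0.25, adjusted p = 0.157). Both genes were highest in PS19/C3aR KO library 3 and lowest in library 5, and in both the C3aR KO libraries lay close together. The next genes encode myeloid transcription factors. Irf8 read 12.7, 7.18, 10.9, 7.01 and 6.16 CPM in PS19/C3aR KO, against 4.80, 4.23, 4.62, 5.53 and 5.01 CPM in C3aR KO (0.86, SE 0.21), and Spi1, which encodes PU.1, averaged 5.18 ± 1.55 CPM in PS19/C3aR KO and 2.97 ± 0.396 in C3aR KO (SD, n = 5). Neither transcription factor overlapped between the groups.

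Genes of the disease-associated state stood higher in PS19/C3aR KO, to a degree that differed between libraries. Cst7, which encodes the protease inhibitor cystatin F, read 3.45, 0.744, 4.37, 1.36 and 0.462 CPM in PS19/C3aR KO libraries 1 to 5, against 0.322, 0.229, 0.134, 0.250 and 0.146 CPM in C3aR KO libraries 1 to 5. The level in PS19/C3aR KO library 3 was 4.37 CPM and that in library 5 was 0.462 CPM, so the libraries of this group differed among themselves more than library 5 differed from C3aR KO. The difference on the log2 scale was 3.25 (SE 0.59), at an adjusted p of 0.0724 with edgeR and 2.11e-05 with DESeq2. Clec7a, the receptor dectin-1, read 2.04, 0.864, 2.88, 1.07 and 0.380 CPM in PS19/C3aR KO, against 0.161, 0.178, 0.0269, 0.125 and 0.167 CPM in C3aR KO (3.40, SE 0.67). Itgax, the integrin chain CD11c, read 11.4, 3.43, 9.43, 2.33 and 0.923 CPM in PS19/C3aR KO, against 0.965, 0.433, 0.726, 0.501 and 0.751 CPM in C3aR KO, and here PS19/C3aR KO library 5 lay within the C3aR KO range (3.02, SE 0.57). Cd52, a surface glycoprotein of leukocytes, did not overlap, at 1.39 to 5.24 CPM in PS19/C3aR KO and 0.651 to 0.941 CPM in C3aR KO. The macrophage elastase Mmp12 was near its detection limit in C3aR KO, where libraries held 0 to 4 counts, and read 0.185 to 0.662 CPM in PS19/C3aR KO.

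Of the 30 disease-associated genes, 27 had a positive log2 fold change, 23 an unadjusted p below 0.05, 9 were called higher by DESeq2 and 8 did not overlap, with a median of 0.66. Trem2, the lipid receptor on which this state depends in mouse, read 20.4, 13, 24.7, 11.8 and 11.2 CPM in PS19/C3aR KO, against 9.14, 8.38, 8.17, 10.6 and 10.3 CPM in C3aR KO (0.80, SE 0.24, adjusted p = 0.213). The groups did not overlap, but PS19/C3aR KO library 5 exceeded the highest C3aR KO library by less than 1 CPM. Homeostatic microglial genes had a median of 0.30, with 8 of 16 at an unadjusted p below 0.05. Among them Gpr34, a lysophosphatidylserine receptor, read 14.2, 11, 12.5, 13 and 10.7 CPM in PS19/C3aR KO, against 7.29, 7.42, 7.72, 9.14 and 10.1 CPM in C3aR KO (0.56, SE 0.13, adjusted p = 0.107), while Tmem119 averaged 27.2 ± 3.48 CPM in PS19/C3aR KO and 23.5 ± 0.845 in C3aR KO (0.21, SE 0.15) and overlapped. Of 19 Fc and phagocytic receptors, 12 had an unadjusted p below 0.05 and 4 were called by DESeq2. Cd14, the co-receptor for lipopolysaccharide, read 5.77, 2.66, 6.38, 4.41 and 3.34 CPM in PS19/C3aR KO, against 1.47, 1.58, 2.04, 1.85 and 2.0 CPM in C3aR KO (1.33, SE 0.24, adjusted p = 0.0724), with no overlap.

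C1q and C4 act upstream of the cleavage of C3, which yields the ligand of C3aR. C1qa, a chain of the C1q recognition molecule, read 101, 56.0, 124, 65.5 and 51.2 CPM in PS19/C3aR KO, against 43.0, 44.7, 40.5, 44.5 and 44.0 CPM in C3aR KO. All PS19/C3aR KO libraries lay above the narrow C3aR KO range, with a log2 fold change of 0.88 (SE 0.26, adjusted p = 0.213 by edgeR, 0.0497 by DESeq2). C1qb and C1qc had the same log2 fold change of 0.86 and did not overlap either. C4b read 409, 104, 217, 149 and 115 CPM in PS19/C3aR KO, against 83.8, 60.6, 63.1, 80.3 and 66.6 CPM in C3aR KO (1.49, SE 0.32, adjusted p = 0.0942), and its count is uncertain because reads of the near-identical C4a may be split with it. C3, the precursor of C3a, read 14.7, 2.06, 10.6, 6.88 and 8.66 CPM in PS19/C3aR KO, against 2.73, 0.357, 0.565, 2.23 and 0.960 CPM in C3aR KO. One PS19/C3aR KO library, number 2, lay within the C3aR KO range of C3. The estimate was 2.65 on the log2 scale (SE 0.64), adjusted p = 0.129. In all, 21 of 22 complement genes had a positive log2 fold change, 11 an unadjusted p below 0.05 and 7 a DESeq2 call, with a median of 0.52.

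Interferon-response genes all leaned the same way. All 30 had a positive log2 fold change, against 8224 of all 16657 tested genes, with a median of 1.06. Of the 30, 28 had an unadjusted p below 0.05, 13 did not overlap and 9 were called higher by DESeq2. Trim30a, a negative regulator of NF-kappa-B signalling, read 6.90, 2.57, 4.97, 3.94 and 2.20 CPM in PS19/C3aR KO, against 1.53, 1.45, 1.10, 2.08 and 1.92 CPM in C3aR KO (1.34, SE 0.34, adjusted p = 0.158). Rsad2, the antiviral enzyme viperin, read 5.91, 2.02, 3.13, 2.56 and 2.15 CPM in PS19/C3aR KO, against 1.12, 1.96, 1.26, 0.676 and 0.939 CPM in C3aR KO (1.40, SE 0.39, adjusted p = 0.193). In both genes PS19/C3aR KO library 1 was highest and the groups did not overlap, although Rsad2 in PS19/C3aR KO library 2 exceeded C3aR KO library 2 by less than 0.1 CPM. Gbp2, an interferon-induced guanylate-binding protein, read 8.80, 4.44, 7.25, 6.8 and 3.69 CPM in PS19/C3aR KO, against 3.06, 2.47, 2.77, 2.85 and 4.05 CPM in C3aR KO (1.02, SE 0.27). Ifit3, which binds viral RNA as part of a complex, read 21.1, 5.83, 13.2, 5.85 and 2.85 CPM in PS19/C3aR KO, against 3.46, 3.52, 4.41, 4.26 and 4.51 CPM in C3aR KO (1.27, SE 0.43, adjusted p = 0.289), and PS19/C3aR KO library 5 lay below every C3aR KO library. Both belong to families of near-identical genes, so their counts are uncertain. The 4 genes carry the marked letters in the sequences above, and neither their levels nor the match tests the element.

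The score of the interferon list, its mean log2 level relative to C3aR KO, was 1.95, 0.47, 1.21, 0.83 and 0.21 in PS19/C3aR KO libraries 1 to 5 and -0.09 to 0.06 in C3aR KO. All 5 PS19/C3aR KO libraries were above, with library 1 far above the rest, and without library 1 the median log2 fold change of the list was 0.76. Of 13 genes of MHC class I presentation, all had a positive log2 fold change and 11 an unadjusted p below 0.05, with a median of 0.50. Psmb8, a subunit of the immunoproteasome, read 8.64, 3.67, 5.64, 5.15 and 3.31 CPM in PS19/C3aR KO, against 2.84, 2.57, 2.37, 2.88 and 2.53 CPM in C3aR KO (1.0, SE 0.24, adjusted p = 0.129), without overlap. In MHC class II, 2 of 8 had an unadjusted p below 0.05 in the higher direction and 1 in the lower, and the median of 0.25 was 0.021 without PS19/C3aR KO library 1, 0.38 without 2, and 0.17 and 0.42 without C3aR KO libraries 3 and 5. Cd74, the invariant chain of class II, read 5.35 to 15.2 CPM in PS19/C3aR KO and 4.51 to 9.25 CPM in C3aR KO (0.62, SE 0.25) and overlapped.

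Cxcl10 had the second highest log2 fold change of all tested genes, after another chemokine, Cxcl13, at 4.05 and 4.48. Cxcl10, an interferon-induced attractant of T cells, read 10.7, 1.44, 5.52, 2.58 and 0.353 CPM in PS19/C3aR KO, against 0.188, 0.382, 0.376, 0.0751 and 0.209 CPM in C3aR KO. Library 5 of PS19/C3aR KO lay within the C3aR KO range. The estimate was 4.05 on the log2 scale (SE 0.86), with adjusted p = 0.0942 by edgeR and 6.68e-04 by DESeq2. Ccl6 read 1.77, 0.912, 2.70, 1.05 and 1.20 CPM in PS19/C3aR KO, against 0.643, 0.459, 0.430, 0.601 and 0.605 CPM in C3aR KO, with no overlap (1.46, SE 0.30, adjusted p = 0.0901). DESeq2 called 9 of 18 genes of chemokines and their receptors higher, 12 had an unadjusted p below 0.05 in that direction and 1 in the other, and the median was 0.98. Il1rn, which encodes the antagonist of the interleukin-1 receptor, held 0 to 2 counts per library in C3aR KO and read 0.966, 0.192, 0.863, 0.227 and 0.0543 CPM in PS19/C3aR KO (3.79, SE 0.79, adjusted p = 0.0929). At such counts the fitted fold change depends on the small count that edgeR adds. Of 22 cytokine and inflammasome genes, 3 were called by DESeq2 and the median was 0.34. T and NK cell markers were near the detection limit: 3 of 8 passed the filter on low counts, among them Cd3d at 0.165 to 0.316 CPM in PS19/C3aR KO and 0.0751 to 0.269 CPM in C3aR KO, and their part in these values was not tested.

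**Figure D2:**
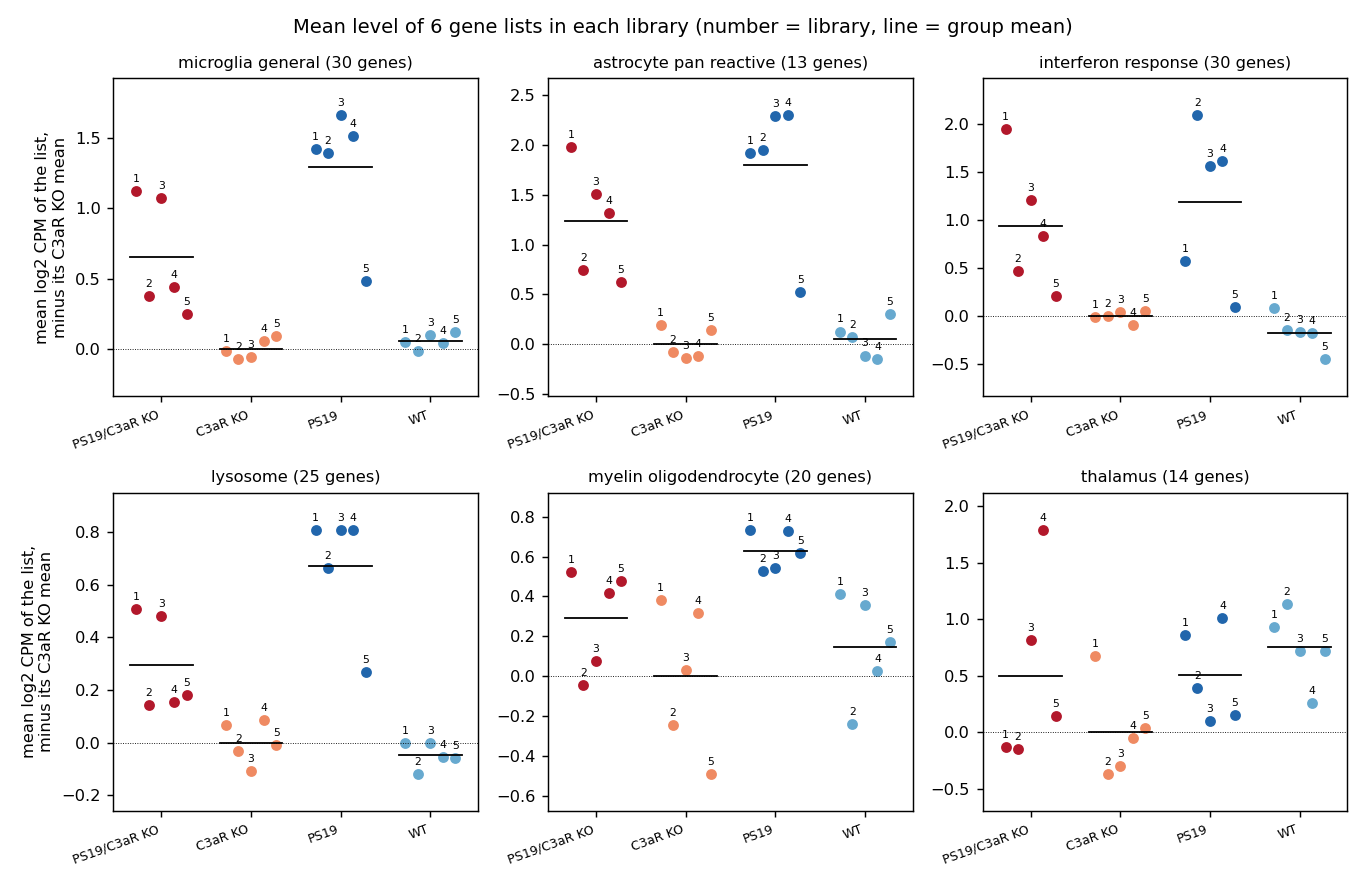
Mean log2 CPM of 6 gene lists in each library relative to the C3aR KO mean (vertical axis), by group; numbers name libraries and lines are group means. In the microglial, astrocyte and interferon lists PS19/C3aR KO libraries 1 and 3 are highest and 5 is lowest, in the lysosomal list 1 and 3 are highest and 2 is lowest, and thalamic genes are highest in library 4, at 1.79.

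Genes of lysosomes differed by small steps. Of 25, 22 had a positive log2 fold change, 16 an unadjusted p below 0.05, 8 did not overlap and 4 were called by DESeq2, with a median of 0.23. Ctsd, the aspartic protease cathepsin D, read 680, 436, 675, 428 and 484 CPM in PS19/C3aR KO, against 403, 344, 326, 428 and 336 CPM in C3aR KO. Library 4 of PS19/C3aR KO and library 4 of C3aR KO both rounded to 428 CPM, the closest the groups came without overlapping. The estimate was 0.56 on the log2 scale (SE 0.16), adjusted p = 0.210. Lipid efflux genes had a median of 0.20, with 4 of 16 at an unadjusted p below 0.05 and 0 called by DESeq2, and the median was 0.12 without PS19/C3aR KO library 1 and 0.13 without C3aR KO library 2. Apoe, the main apolipoprotein of brain, read 2015, 1500, 1968, 1626 and 1548 CPM in PS19/C3aR KO, against 1481, 1379, 1291, 1603 and 1523 CPM in C3aR KO (0.25, SE 0.10, adjusted p = 0.420), and the groups overlapped. All 22 genes of cholesterol synthesis and its regulation had a negative log2 fold change, between -0.25 and -0.02, with a median of -0.17, or -0.10 without PS19/C3aR KO library 1. Library 2 of PS19/C3aR KO did not share that direction, with a list score of 0.06. An unadjusted p below 0.05 was reached by 6 of them, and 0 were called by edgeR or DESeq2. The regulator Srebf2 averaged 245 ± 10.4 CPM in PS19/C3aR KO and 274 ± 18.2 in C3aR KO (SD, n = 5) and overlapped (-0.16, SE 0.06, adjusted p = 0.336).

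Myelin genes leaned the same way in all members but the libraries overlapped. All 20 had a positive log2 fold change, with a median of 0.27, 7 had an unadjusted p below 0.05 and 0 were called by DESeq2. The score of the list ran from -0.04 to 0.52 in PS19/C3aR KO and from -0.49 to 0.38 in C3aR KO, and C3aR KO library 5 was lowest. Without it the median was 0.17. Opalin, an oligodendrocyte membrane protein and the 1 member that did not overlap, read 18.9, 16.3, 16.8, 21.9 and 16.6 CPM in PS19/C3aR KO, against 14.8, 12.2, 14.0, 14.7 and 10.3 CPM in C3aR KO (0.46, SE 0.14, adjusted p = 0.213). Genes of oligodendrocyte precursors had a median of 0.03, which ran from -0.0017 to 0.06 with 1 library left out.

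Neuronal genes showed small differences, mostly toward lower levels in PS19/C3aR KO. The postsynaptic scaffold Dlg4, which encodes PSD-95, read 734, 823, 733, 775 and 820 CPM in PS19/C3aR KO, against 896, 855, 910, 910 and 920 CPM in C3aR KO. All 5 PS19/C3aR KO libraries lay below all 5 C3aR KO libraries, with a log2 fold change of -0.21 (SE 0.05, adjusted p = 0.0996 by edgeR and 0.00190 by DESeq2). Ctxn1, which encodes the neuronal membrane protein cortexin, read 196, 273, 233, 227 and 227 CPM in PS19/C3aR KO, against 281, 320, 320, 274 and 312 CPM in C3aR KO (-0.38, SE 0.07, adjusted p = 0.0724). The kinesin heavy chain Kif5c, which carries cargo along axons, read 804, 915, 877, 874 and 922 CPM in PS19/C3aR KO, against 1024, 951, 1052, 1044 and 1065 CPM in C3aR KO (-0.23, SE 0.05, adjusted p = 0.104). Apc, which binds microtubules and restrains Wnt signalling, read 356, 368, 349, 315 and 330 CPM in PS19/C3aR KO, against 429, 371, 413, 432 and 450 CPM in C3aR KO (-0.29, SE 0.06, adjusted p = 0.0724). None of these 4 genes overlapped between the groups. They were among the genes picked for the lowest p in this direction, so their lack of overlap comes in part from that choice. Of all tested genes, 0.552% lay below without overlap, as did 1 of 20 postsynaptic and 0 of 20 presynaptic genes. Syn1, the vesicle protein synapsin I, overlapped through PS19/C3aR KO library 2, at 658 CPM, with the others at 524 to 604 CPM and C3aR KO at 646 to 726 CPM (-0.20, SE 0.05, adjusted p = 0.182).

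All 20 presynaptic genes had a negative log2 fold change, with a median of -0.12, 8 at an unadjusted p below 0.05 (the background in that direction was 3.74%) and 1 DESeq2 call. Of 20 postsynaptic genes 19 were negative, with a median of -0.10, 2 at an unadjusted p below 0.05 and 1 DESeq2 call. Leaving out PS19/C3aR KO library 1 brought the presynaptic median to -0.08, and leaving out library 3 brought the postsynaptic one to -0.06. Genes of dentate granule cells had a median of -0.20, with 3 of 14 at an unadjusted p below 0.05, but their score was -0.16, -0.61, -0.93, 0.21 and 0.12 in PS19/C3aR KO libraries 1 to 5, against -0.39 to 0.26 in C3aR KO. Their median was -0.08 without PS19/C3aR KO library 2, -0.05 without 3 and -0.31 without 4, and -0.09 and -0.10 without C3aR KO libraries 1 and 4. Stxbp6, a SNARE-binding protein, read 67.1, 86.9, 66.3, 107 and 88.5 CPM in PS19/C3aR KO, against 106, 89.3, 112, 105 and 103 CPM in C3aR KO, so libraries 1 and 3 were low and library 4 was not (-0.31, SE 0.11). CA1 and CA3 pyramidal genes had medians of -0.05 and -0.04, interneuron genes -0.03 and tau kinase and phosphatase genes -0.02. Nuclear genes of the respiratory chain had a median of -0.03 and ribosomal protein genes -0.01. Medians this near 0 depended on single libraries: they ran from -0.10 to -0.03 for CA1, -0.17 to 0.05 for CA3, -0.08 to 0.02 for interneurons, -0.04 to -0.0012 for tau kinases and phosphatases, -0.05 to -0.01 for the respiratory chain and -0.04 to 0.0013 for ribosomal proteins with 1 library left out.

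The scores of choroid plexus and thalamus overlapped between the groups. The choroid plexus score ran from -1.86 to 3.18 in PS19/C3aR KO and from -2.43 to 2.83 in C3aR KO, with libraries 1 and 5 of PS19/C3aR KO and 1 and 4 of C3aR KO high. The median log2 fold change of its 16 genes, 0.51, ran from -0.22 without PS19/C3aR KO library 5 to 1.23 without C3aR KO library 4. All 16 were positive, as were all 11 ependymal genes, whose median also turned sign with 1 library left out. A sign shared by every member of a list can therefore rest on single libraries. Thalamic genes had a median of 0.61, with 5 of 14 at an unadjusted p below 0.05, and 0.11 without PS19/C3aR KO library 4. With the thalamic score of each library as a covariate, added after the values were seen, the median was 0.71 for microglia in general, 1.06 for pan-reactive astrocytes and 1.12 for interferon response. When the choroid plexus score was the covariate instead, they were 0.72, 1.18 and 1.07. The striatal score was 0.77 in PS19/C3aR KO library 3, against -0.25 to 0.18 in C3aR KO. Libraries 2 and 3 had the lowest hippocampal scores of PS19/C3aR KO, at -0.69 and -0.60, and also its lowest dentate scores. Scores of cortical layer genes overlapped, at -0.49 to 0.38 in PS19/C3aR KO and -0.34 to 0.37 in C3aR KO. Endothelial genes had a median of 0.05, or -0.02 without PS19/C3aR KO library 4, and mural and fibroblast genes one of 0.13, or 0.21 without C3aR KO library 1. Mfsd2a, a lipid transporter of the blood-brain barrier, did not overlap, at 16.9 to 20.3 CPM in PS19/C3aR KO and 22.2 to 26.6 CPM in C3aR KO (-0.44, SE 0.13, adjusted p = 0.213).

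The libraries of PS19/C3aR KO differed among themselves. The score of microglia in general was 1.12, 0.38, 1.07, 0.44 and 0.24 in PS19/C3aR KO libraries 1 to 5, against -0.07 to 0.09 in C3aR KO. The score of pan-reactive astrocytes was 1.98, 0.74, 1.51, 1.32 and 0.62 in PS19/C3aR KO, against -0.14 to 0.19 in C3aR KO. Every PS19/C3aR KO library was above every C3aR KO library in both scores, and 2 and 5 were the lowest in both. The number of calls depended on those libraries. Leaving out PS19/C3aR KO library 2 gave 47 genes higher (0.281%) and 21 lower (0.125%), and leaving out library 5 gave 23 higher (0.137%) and 1 lower (0.00597%), where all libraries gave 1 and 0. Of the 68 genes called without library 2, 56 were also called by DESeq2 on all libraries. They held 5 of the 13 pan-reactive astrocyte genes, 5 of the 30 disease-associated microglial genes, 5 of the 18 chemokine genes, 3 of the 22 complement genes and 0 of the 30 interferon-response genes. Leaving out any 1 C3aR KO library left the counts at 1 and 0, and leaving out PS19 library 5, which enters only through the shared spread, gave 92 and 13.

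**Figure D3:**
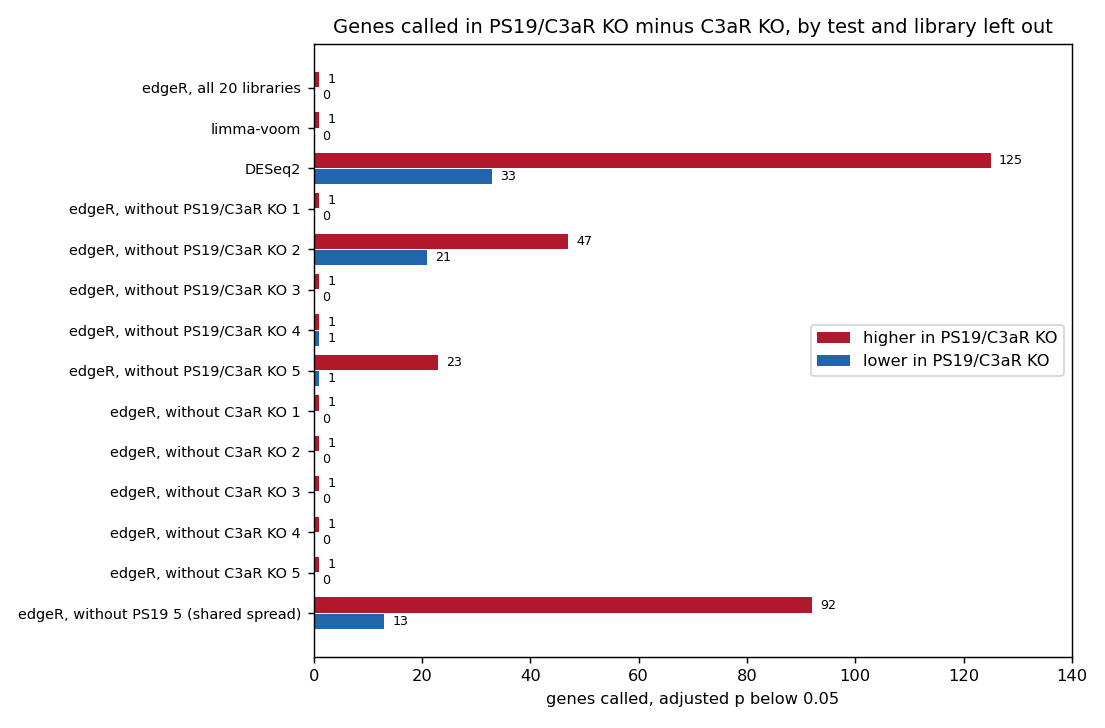
Number of genes called at an adjusted p below 0.05 (horizontal axis) in PS19/C3aR KO against C3aR KO, higher and lower, for each test and each library left out. DESeq2 calls 125 higher and 33 lower, edgeR calls 1 and 0 with all libraries and 47 and 21 without PS19/C3aR KO library 2.

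PS19 against WT gives a tau response in 10 libraries that the comparison above does not use, although 1 fit shares the spread. Of the genes called there, most had the same sign under the C3aR KO label, at smaller values. PS19 minus WT had 1250 genes higher (7.5%) and 553 lower (3.32%) by edgeR. A fit that includes each library's Rn45s share gave 374 and 57, and that share averaged 1.86% in PS19 and 3.59% in WT, so the persistence shares that follow rest on calls that move with it. Of the 1250, 1214 (97.1%) had a positive log2 fold change in PS19/C3aR KO minus C3aR KO, where their median was 0.25. Of the 553, 541 (97.8%) were negative there, with a median of -0.11. Of all 16657 tested genes, 8224 were positive and 8433 negative there. The genes were read in the same libraries and are not independent, so the shares are a description. The medians in PS19 minus WT, 0.56 and -0.22, come from the values that chose these genes and are a description. Among the genes higher in PS19, 179 (14.3%) also lay above without overlap in PS19/C3aR KO, against 1.3% of all genes, and among those lower, 35 (6.33%) lay below, against 0.552%. By edgeR 1 gene, Prnp, was called in the same direction in both comparisons, and the origin of its reads was not tested. By DESeq2 the number was 147, which is 93.0% of its 158 calls in PS19/C3aR KO minus C3aR KO and 6.46% of its 2275 calls in PS19 minus WT (1466 higher, 8.8%, and 809 lower, 4.86%, 13.7% in all). Across all tested genes the Pearson r of the log2 fold changes was 0.631, as a description, since genes are not independent.

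**Figure D4:**
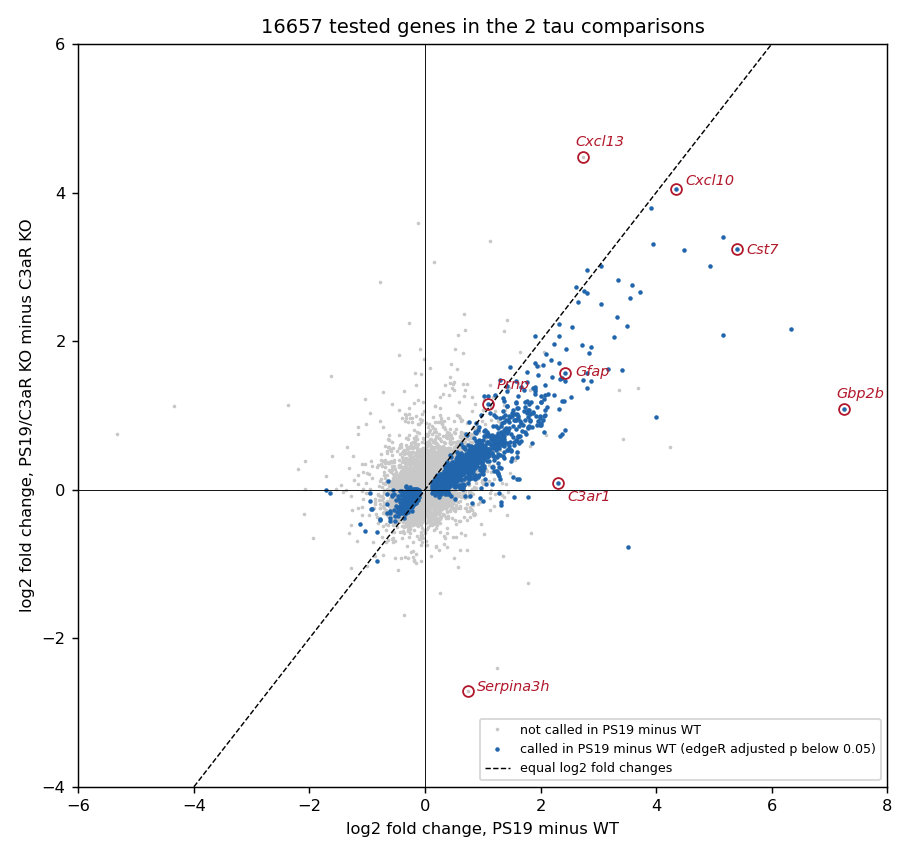
Log2 fold change of 16657 tested genes in PS19/C3aR KO minus C3aR KO (vertical) against PS19 minus WT (horizontal); blue genes are called in PS19 minus WT and the dashed line marks equal values. Most blue genes lie between the horizontal axis and the dashed line, Prnp lies near the line, and C3ar1 lies close to the horizontal axis. Gbp2b lies above that axis and far below the dashed line, and its horizontal position depends on the small count that edgeR adds.

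Medians of the gene lists are set side by side for PS19/C3aR KO minus C3aR KO and PS19 minus WT, and the lists were not tested against each other. They were 1.18 and 1.73 for pan-reactive astrocytes, 1.06 and 1.57 for interferon response, 0.98 and 1.53 for chemokines, and 0.52 and 0.69 for complement. They were 0.71 and 1.28 for microglia in general, 0.66 and 1.38 for disease-associated microglia, 0.23 and 0.61 for lysosomes, and 0.25 and 1.14 for MHC class II. For the difference itself, the interaction in the same edgeR fit, 484 of all tested genes had an unadjusted p below 0.05 toward the lower value with the C3aR KO label (2.91%) and 207 toward the higher (1.24%). In the lower direction the count was 19 of 25 lysosomal genes, 18 of 30 genes of microglia in general, 16 of 30 disease-associated genes and 5 of 8 MHC class II genes. It was 6 of 22 for complement, 5 of 18 for astrocytes in general, 2 of 18 for chemokines, 1 of 13 for pan-reactive astrocytes and 0 of 30 for interferon response. These counts depend on the spread of each gene as well as on the size of the difference. Both the medians and the counts use PS19 minus WT, whose calls moved with the Rn45s share, and the counts were not repeated with that share in the fit. The lists were chosen with earlier results of these data known. Rsad2 had log2 fold changes of 1.40 and 1.42 and an interaction of -0.02 (SE 0.55), an interval that leaves room for differences of more than 1 in either direction. Ctsd had 0.56 and 1.28 and an interaction of -0.72 (SE 0.23, unadjusted p = 0.00515), and Hexa, a lysosomal enzyme, had 0.22 and 0.75 and -0.53 (SE 0.13, unadjusted p = 8.42e-04). None of these 3 passed adjustment over all genes with all libraries in the fit. Without PS19 library 5, Hexa passed by edgeR, at -0.629 (adjusted p = 0.00948).

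**Figure D5:**
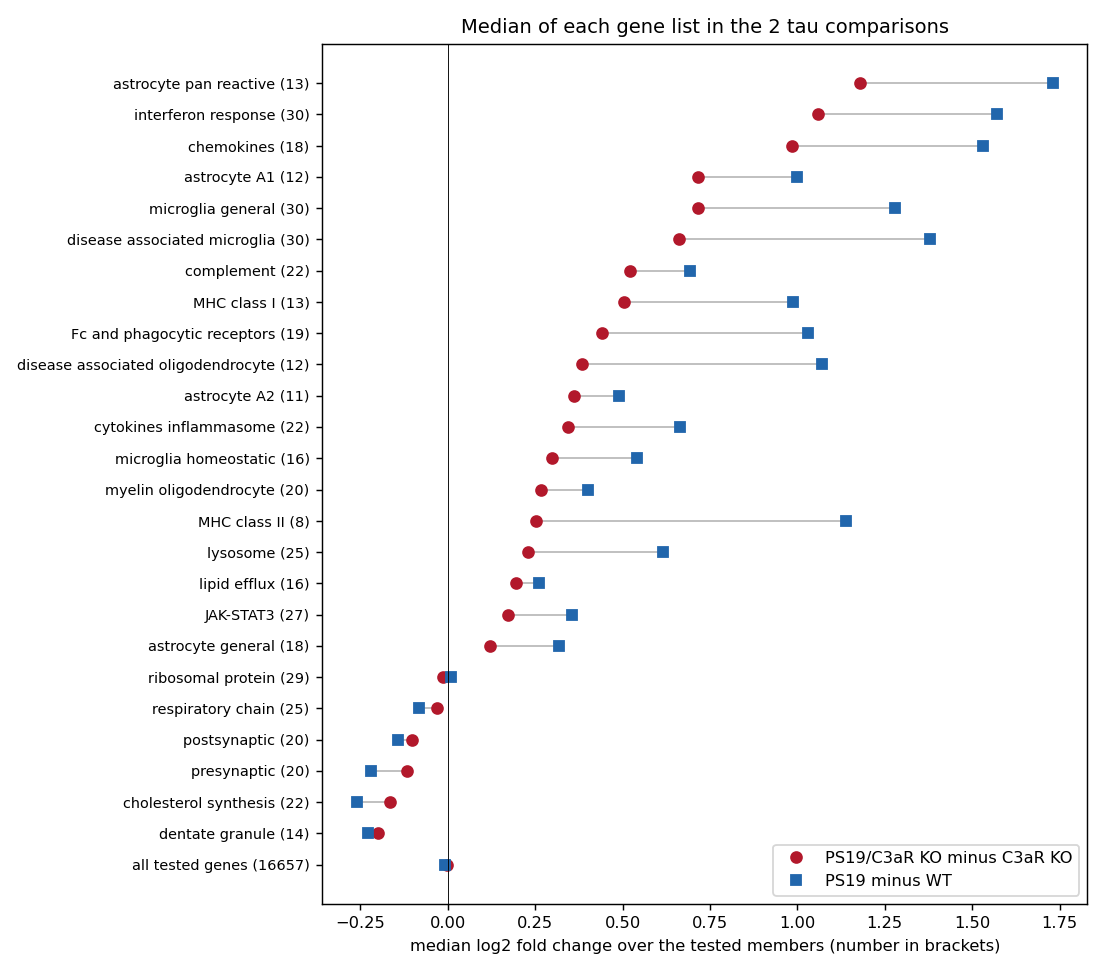
Median log2 fold change of the tested members of 25 gene lists and of all tested genes in PS19/C3aR KO minus C3aR KO (circles) and PS19 minus WT (squares). Circles lie nearer to 0 than squares in all 25 lists drawn except ribosomal proteins, with the widest gap for MHC class II, at 0.25 and 1.14. The lists drawn are a part of the 47, and those not drawn went both ways. Mural and fibroblast genes (0.129 and 0.0609) and immediate early genes (0.125 and 0.0731) lay farther from 0 under the C3aR KO label. Thalamic genes (0.608 and -0.218) and glucocorticoid genes (-0.112 and 0.0748) also lay farther from 0 there, with the sign turned. The thalamic median was 0.107 without PS19/C3aR KO library 4. Choroid plexus genes (0.511 and 0.944) lay nearer.

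The interaction was called in 2 genes, both lower (0.012%), and in 0 higher (0%). DESeq2 called 3 lower (0.018%), with Man2b2, a lysosomal mannosidase, at -0.42 as the third, and 0 higher. C3ar1 read 18.1, 18.7, 15.8, 15 and 17.5 CPM in PS19/C3aR KO libraries 1 to 5 and 15, 14.1, 16.6, 18.0 and 16.1 CPM in C3aR KO, a log2 fold change of 0.09 (SE 0.17, adjusted p = 0.947). In PS19 it read 11.5, 9.04, 12.3, 13.7 and 4.98 CPM, against 2.30, 1.88, 2.10, 1.73 and 2.42 CPM in WT, a log2 fold change of 2.31. The levels under the C3aR KO label were thus at or above those of PS19, and the interaction was -2.22 (SE 0.26, adjusted p = 0.00106). Gbp2b, a guanylate-binding protein that may share reads with the similar Gbp2, read 8.75, 3.55, 6.10, 4.86 and 2.74 CPM in PS19/C3aR KO, against 2.65, 2.55, 2.45, 2.23 and 2.38 CPM in C3aR KO, with no overlap (1.08, SE 0.38, adjusted p = 0.303). WT libraries held 0 to 3 counts of it and PS19 libraries read 2.78, 5.29, 12, 4.88 and 2.18 CPM, so no fold is given for PS19 minus WT, and the fitted interaction of -6.16 (adjusted p = 0.00188) depends on the small count that edgeR adds. In both genes the WT libraries lay below all libraries of the other 3 groups, C3aR KO without the transgene included, so these interactions cannot be told apart from a difference of the WT libraries from the rest. Serpina3h, a serine protease inhibitor of a family of near-identical genes, had the lowest log2 fold change of all tested genes between PS19/C3aR KO and C3aR KO. Its values were 0.359, 0.0960, 0.172, 1.30 and 0.190 CPM in PS19/C3aR KO, against 5.41, 1.83, 3.01, 1.28 and 3.09 CPM in C3aR KO (-2.71, SE 0.63, adjusted p = 0.117 by edgeR and 0.00190 by DESeq2), and averaged 4.59 ± 2.76 CPM in PS19 and 2.76 ± 1.47 in WT (SD, n = 5). The groups met at PS19/C3aR KO library 4 and C3aR KO library 4. The related Serpina3n, a marker of reactive astrocytes, averaged 92.0 ± 47.6 CPM in PS19/C3aR KO and 71.7 ± 24.5 in C3aR KO and overlapped (0.36, SE 0.34).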

How the data were processed

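Polyadenylated RNA of 20 hippocampal samples was sequenced as paired reads. The authors mapped reads to the mm10 genome using TopHat 2.0.9 and took exonic reads per gene from HTSeq, per the labels' protocols. The deposited counts per gene are whole numbers without normalization. DESeq2 is named in the submitters' processing notes with no role. Strand setting: not given in the sources used here. The same holds for the annotation, so overlapping and antisense genes cannot be told apart. Groups and library numbers came from the titles. No label says that libraries are separate animals, so p-values measure the spread between libraries, which may be technical, and no batch is given. Some results are not reported here.

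Counts of 24513 genes were fitted in 1 edgeR 4.0.16 quasi-likelihood model (R 4.3.3, TMM, genotype as the only factor, all 20 libraries sharing the spread) after filterByExpr (minimum count 10, minimum total 15), which left 16657 genes. The contrasts were PS19/C3aR KO minus C3aR KO, PS19 minus WT and their difference, called at a Benjamini-Hochberg adjusted p below 0.05. The median SE of a log2 fold change was 0.097. CPM are TMM-normalized, the score of a list averages log2 CPM (prior count 2) over its genes, and the SE is the log2 fold change over the root of F. DESeq2 1.42.0 and limma 3.58.1 (voom), other scalings, filters, covariates and leaving out each library were alternatives. The procedure was tested on simulated data. Rows that name no gene were left out. Libraries of 1 group differed beyond sampling noise (chi-square per degree of freedom 8.62 to 104), so none was counted as a duplicate.

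The members and the 47 gene lists were chosen with earlier results of these data known. Named genes were C3ar1, Mapt and Prnp, called genes with the highest and lowest fold changes, the member of each list with the lowest p, genes of the interaction and genes called in PS19 minus WT with a fold change near 0 here; since 1 gene was called, genes with the lowest p and further well-known members were added after their values were seen. Promoters are from RefSeq on GRCm38.p6. Same-numbered libraries of PS19/C3aR KO and C3aR KO had correlations of their deviations between -0.104 and 0.5. PS19/C3aR KO libraries 1 and 2 matched the same number best (0.419 and 0.5), and 3, 4 and 5 matched another number best. These values cannot show whether the numbers pair libraries, and the main fit did not pair them.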

Additional observations from a re-analysis of the deposited data

Results flagged for a closer look

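Of 116 sets of 5 libraries examined for a library that stands apart, 3 had one, where chance gives about 1 in 20. Rsad2 in PS19/C3aR KO library 1, at 5.906 CPM, lay 0.713 of the group's range above the next library. Serpina3h in PS19/C3aR KO library 4, at 1.298 CPM, lay 0.781 of the range above the next. The total of gene counts in C3aR KO library 5, 47828111, was highest by 0.717 of the range.

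In 2 genes the interaction, the tau comparison with the C3aR KO label minus that without it, passed the test. For C3ar1 the interaction was -2.218 on the log2 scale, with similar levels in PS19/C3aR KO and C3aR KO and a level in PS19 above that in WT. For Gbp2b it was -6.162, with 0 to 3 counts in WT libraries, and this fitted value depends on the small count that edgeR adds. Both genes were lower in WT than in all 3 other groups, so a different tau response cannot be told apart from a difference between the WT libraries and the rest.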

How the results depend on the processing

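Calls in PS19/C3aR KO minus C3aR KO came to 125 higher and 33 lower by DESeq2 and, with a threshold of 0.10 added after the data were seen, to 35 and 10. Leaving out 1 library at a time gave 1 to 92 higher and 0 to 21 lower, with 92 and 13 without PS19 library 5, which enters through the shared spread, and 47 and 21 without PS19/C3aR KO library 2. Leaving out PS19 library 1 gave 2 higher. With the library number as a replicate block 2 were higher by edgeR, Prnp and Cxcl13 (4.32, adjusted p = 0.0104). No label says whether the numbers pair libraries. Limma-voom, other scalings and filters, the 10 libraries alone and 3 covariates left 1 and 0. In PS19 minus WT the Rn45s share as a covariate gave 374 higher and 57 lower and the choroid plexus score 849 lower; single libraries left out gave 891 to 1515 higher and 269 to 725 lower. The interaction had 1 lower call by limma-voom (C3ar1) and 1 with the replicate block (Gbp2b), and 2 to 5 with a library left out. Calls in both comparisons numbered 147 by DESeq2, 2 with the block and 1 to 103 with a library left out. The cause was not tested.

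Of 938 list medians under alternatives, 934 moved by less than 1 SD of the list score over the PS19/C3aR KO libraries, a wide margin. With 1 library left out, 31 of 47 medians turned sign or moved by over 1.5 times, and 12 turned sign: those of oligodendrocyte precursors, CA3, interneurons, ribosomal proteins, unfolded protein response, heat shock, choroid plexus, endothelium, striatum (-0.0519 to 0.152), immediate early genes (-0.0886 to 0.301), ependymal cilia (-0.116 to 0.686) and red blood cells. The border macrophage median, 0.203, was 0.0471 to 0.425 and the 1 red blood cell gene, -0.302, was -0.483 to 0.222 with a library left out and -0.0899 by limma-voom. Of 2294 values of 116 named genes, 26 turned sign, all in genes with unadjusted p above 0.05: H2-Oa with limma-voom (0.262), the replicate block (0.0413), Rn45s (0.0742) and thalamus (0.0352) as covariates, H2-Ob with limma-voom (-0.0125), Hpgd with thalamus (-0.0034), Il2rb with Rn45s (0.0995) and thalamus (0.0462), and Ttr with choroid plexus (-0.108). With a library left out the ranges were -0.340 to 0.486 for H2-Oa, -0.178 to 0.312 for H2-Ob, -0.116 to 0.272 for Hpgd, -0.253 to 0.136 for Il2rb, -0.483 to 0.222 for Alas2, -0.032 to 0.384 for Mir703, -0.0952 to 0.224 for Tlr1 and -0.250 to 1.17 for Ttr.

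Depth limits genes under about 1 CPM, such as Il1rn and Mmp12.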
